A study of Mus musculus with 21 samples.

Results

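Estrogen receptor alpha (ERα) binding after estradiol was compared between the visceral fat labelled vWAT and Liver, over the 5000 strongest peaks of each tissue. Each list was ranked by the −log10 p-value that the authors gave each peak. The members were these 10000 peaks, taken from 20715 vWAT and 21411 Liver peaks on chromosomes 1 to 19 and X, 42126 in all, and from 72690 over the 5 deposited ERα lists of the series. A peak was called shared when it overlapped a peak anywhere in the full list of the other tissue by at least 1 bp. Its summit, the point of highest signal, placed it at a gene end when no more than 1 kb separated the summit from the start or finish of some protein-coding gene (mm10). All other peaks were called distal.

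The animals were CD-1 mice, an outbred strain, aged 10 weeks, and carried no engineered allele that the labels name. The groups were vWAT with Estradiol (4 libraries), Liver with Estradiol (2), the fat depots scWAT (3) and BAT (1) with Estradiol, and vWAT with vehicle, which the labels spell Vehicule (2). Chromatin was precipitated with the antibody sc543, and for the dose, route, time, sex and number of animals behind a library the sources used here give nothing. Each group had 1 list over its libraries, so no value below carries a spread between animals and no difference between tissues could be tested. The 95% Wilson intervals cover counting error over peaks only, neighbouring peaks are not independent, and the read depth is unknown. The tissues are mixtures of cells, so fewer cells of a type and less binding per cell cannot be told apart.

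ERα is a nuclear receptor that binds estradiol and then binds DNA, directly at estrogen response elements or through other DNA-bound factors, and recruits coactivators or corepressors. In other tissues its binding is known mostly from enhancers that lie away from gene starts and that differ between cell types. In fat it is known for its part in where and how lipid is stored, and in the hepatocyte for its part in lipid, lipoprotein and drug metabolism.

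Binding at gene ends was largely common to fat and liver, and binding over 1 kb from a gene end was largely not. Of the vWAT top peaks at gene ends, 1515 of 1694 (89.4%, 87.9 to 90.8) were found in Liver, against 552 of 3306 distal peaks (16.7%, 15.5 to 18). Of the Liver top peaks at gene ends, 2159 of 2737 (78.9%, 77.3 to 80.4) were found in vWAT, against 671 of 2263 distal peaks (29.7%, 27.8 to 31.6). Over both places together, Liver held 2067 of 5000 vWAT top peaks (41.3%, 40.0 to 42.7) and 22.8% of all vWAT peaks. In turn, vWAT held 2830 of 5000 Liver top peaks (56.6%, 55.2 to 58.0) and 22.2% of all Liver peaks.

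Read the other way, shared peaks sat mostly at gene ends in both tissues. In vWAT 73.3% (71.3 to 75.2) of shared top peaks and 6.10% (5.29 to 7.03) of unshared ones lay at a gene end. In Liver these shares were 76.3% (74.7 to 77.8) and 26.6% (24.8 to 28.5). The Liver peaks that vWAT lacked therefore held a larger part of gene-end sites than the vWAT peaks that Liver lacked. The largest class of the vWAT peaks was unshared and distal, with 2754 of 5000 (55.1%, 53.7 to 56.5), and the largest class of the Liver peaks was shared at gene ends, with 2159 of 5000 (43.2%, 41.8 to 44.6). The remaining vWAT classes were 1515 shared gene-end, 552 shared distal and 179 unshared gene-end peaks. In Liver they were 671 shared distal, 578 unshared gene-end and 1592 unshared distal peaks. The gene-end share was higher among shared than among unshared peaks in both lists under all 10 alternative settings tried. The sizes moved, since 14.7% of unshared vWAT and 40.0% of unshared Liver peaks lay at gene ends when summits had to lie within 100 bp to be shared, and 23.1% of vWAT and 41.2% of Liver top peaks were shared once those found in every other list were left out.

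Both thresholds of the rule cut through a continuous range. The peaks ranked 5000 and 5001 were tied, at an enrichment of 7.15 and a −log10 p of 13.6 in vWAT and at 4.84 and 6.68 in Liver. Enrichment is the authors' own ratio for each peak over a background that is not stated, and it describes peaks within 1 list. Of vWAT summits 900 to 1000 bp from a gene end 20 of 30 were shared, and of those 1001 to 1100 bp away 6 of 18 were. In Liver these counts were 27 of 39 and 17 of 28.

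The strongest peaks of the 2 tissues differed in kind. Among the 500 strongest Liver peaks, 498 (99.6%, 98.6 to 99.9) were found in vWAT, including all 418 at gene ends and 80 of 82 distal ones (97.6%, 91.5 to 99.3). Liver held 279 of the 500 strongest vWAT peaks (55.8%, 51.4 to 60.1), and the split followed position, with 202 of 207 gene-end peaks (97.6%, 94.5 to 99.0) and 77 of 293 distal peaks (26.3%, 21.6 to 31.6). Strong vWAT binding absent from Liver began at rank 4, whereas the first Liver peak absent from vWAT stood at rank 444 and the first such peak at a gene end at rank 836. Toward rank 5000 the shares over both places together came closer. Of the 500 weakest top peaks, 30.4% (26.5 to 34.6) in vWAT and 34.4% (30.4 to 38.7) in Liver were shared. At gene ends the shares moved apart, to 82.5% in vWAT and 52.9% in Liver. For distal peaks they came closer, at 12.8% in vWAT and 23.3% in Liver.

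**Figure D1:**
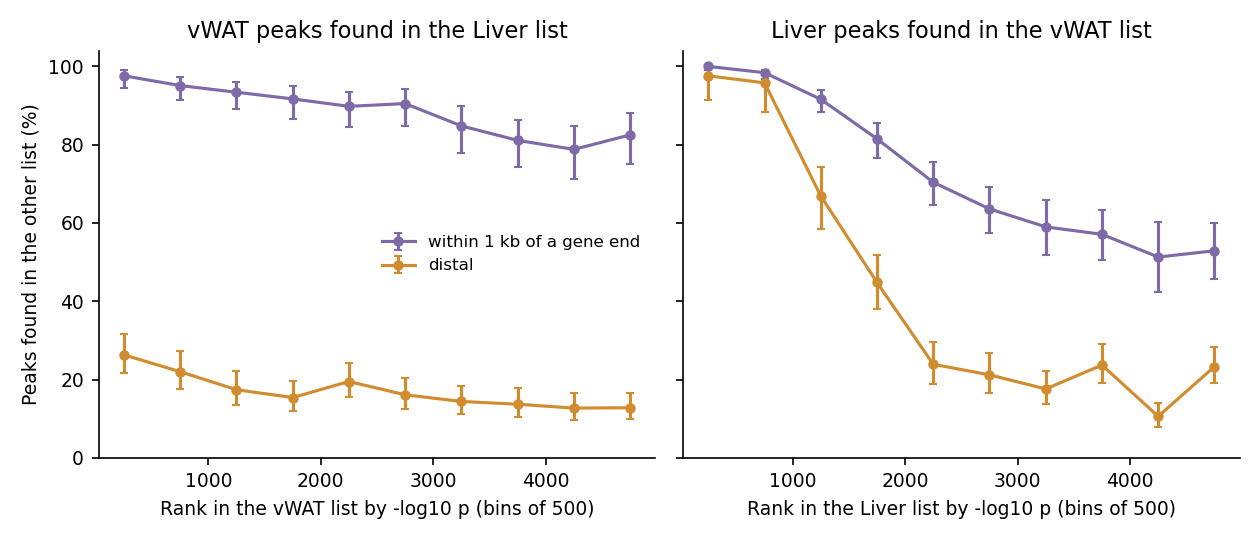
Share of vWAT top peaks found in the Liver list (left) and of Liver top peaks found in the vWAT list (right), in bins of 500 ranks by −log10 p, for summits within 1 kb of a gene end and for distal summits, with 95% Wilson intervals. In vWAT the distal share is low from the strongest bin on (26.3%), whereas in Liver it starts at 97.6% and is 23.3% in the last bin.

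Unshared Liver top peaks were also weaker than shared ones, though their medians lay above the median enrichment of all Liver peaks, 3.91. The median enrichment of Liver top peaks was 7.85 for shared gene-end, 6.31 for shared distal, 5.55 for unshared gene-end and 5.52 for unshared distal peaks. In vWAT the same medians were 10.3, 9.29, 8.27 and 9.01, so the unshared distal peaks of fat were close to the shared distal ones. A −log10 q of at least 2 was reached by 89.9% of all vWAT and 46.4% of all Liver peaks. The lists thus differ in library number and in how much of each is weakly supported, and the part of this in the shares was not tested. When both lists were held to their top 5000, 1707 vWAT peaks had a Liver partner, 80.1% of them at gene ends, with a median distance of 45.0 bp between the 2 summits.

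Close shares of the unshared distal peaks lay inside a gene span, 48.3% (46.5 to 50.2) in vWAT and 48.4% (45.9 to 50.8) in Liver. Over 100 kb from any protein-coding gene were 16.3% and 16.6%, and outside a gene but within 10 kb of it 9.88% (8.82 to 11) and 12.6% (11.1 to 14.3). The median distance to a gene end was 31.3 kb in vWAT and 23.8 kb in Liver. Crowding differed. Of the unshared distal vWAT peaks 278 of 2754 (10.1%) had another of their class within 10 kb, against 26 of 1592 (1.63%) in Liver, a smaller class. The genes with the most unshared vWAT top peaks in or within 25 kb of their span were long ones, Lrmda (9 peaks over 1040 kb), Trabd2b (8 over 208 kb) and Adam12 (8 over 342 kb), the last encoding a metalloprotease of the cell surface. In Liver no gene had more than 4, which Fhad1, Ext1, a heparan sulfate polymerase gene, and Pde4d, a phosphodiesterase gene, each had. A summit of the full Liver list lay within 1 kb of 1.71% of unshared distal and 5.59% of unshared gene-end vWAT summits. A vWAT summit lay within 1 kb of 2.58% and 10.0% of the Liver ones.

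The 3 other lists placed these classes further. The vWAT peaks absent from Liver were largely found again in subcutaneous fat, scWAT, with 2346 of 2754 distal peaks (85.2%, 83.8 to 86.5). That was below the 90.0% (89.1 to 90.8) of all 5000 vWAT top peaks and above the 48.4% of all vWAT peaks, weak ones included. BAT, brown fat, held 11% of them, against 31.9% of the top peaks and 11.1% of all vWAT peaks. The vehicle list of vWAT held 16.0%, against 47.4% and 22.7%. In all, 70.4% (68.7 to 72.1) were in scWAT and not in the vehicle list, and 13.3% were in none of these lists. Held to the 5193 peaks of the shortest list, scWAT still held 62.7% of them.

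Distal Liver peaks absent from vWAT mostly stood alone. Of the 1592 distal ones 5.28% (4.28 to 6.49) were found in scWAT, 1.70% in BAT and 2.64% in the vehicle list, and 92.0% (90.5 to 93.2) were in no other list. These lists held 55.2%, 30.1% and 51.0% of all 5000 Liver top peaks, and 21.6%, 8.78% and 17.2% of all Liver peaks. Liver is the only tissue compared here that is not fat, so a second tissue of its kind was not at hand. The 578 at gene ends differed, with 34.4% (30.7 to 38.4) in scWAT and 24.0% (20.7 to 27.7) in vWAT with vehicle, although they were absent from vWAT with estradiol.

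Shared gene-end peaks were present with and without added hormone. Of the vWAT ones, 1474 of 1515 (97.3%, 96.3 to 98.0) were in the vehicle list, 97.5% in scWAT and 67.0% in BAT. Among shared distal peaks of vWAT 67.0% (63.0 to 70.8) were in the vehicle list, and among unshared gene-end ones 46.4% (39.2 to 53.7). Whether these mice had estrogen of their own, and what the vehicle list was called against, is not given in the sources used here.

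**Figure D2:**
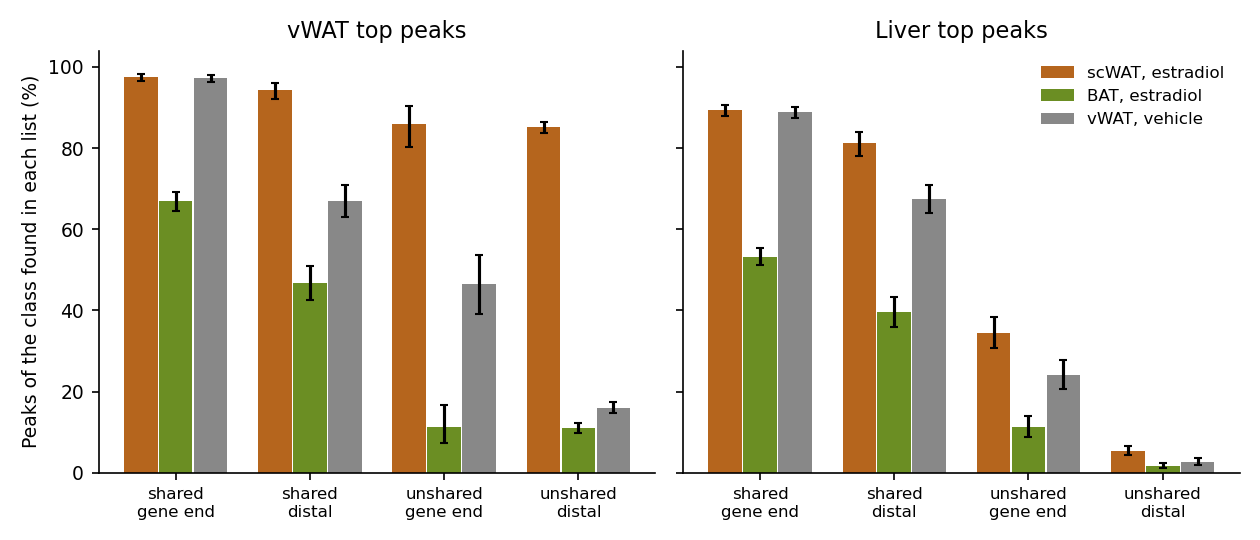
Share of each class of vWAT (left) and Liver (right) top peaks that overlapped a peak of the scWAT, BAT or vWAT vehicle list, with 95% Wilson intervals. Unshared distal vWAT peaks are found in scWAT (85.2%) and seldom in the vehicle list (16.0%), and unshared distal Liver peaks are at or below 5.28% in each list.

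At gene ends the 4 strongest shared vWAT peaks belonged to Cwc22, a splicing factor gene (enrichment 16.1, rank 3, with a Liver peak of 19.5 at rank 4), Fyco1, which encodes an adaptor for vesicle transport (19 and 19.7), Slc4a1ap (22.7 and 22.9) and Ndufb3, a subunit of respiratory complex I (22.5 and 22.8). In Liver the strongest were at Ddx17, an RNA helicase gene (24.0, with 17.4 in vWAT), Cwc22, Gpr137 (23.2 and 14.1) and Hnrnpa2b1, an RNA-binding protein gene (23.0 and 18.3). All of these were in every other list.

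Among shared distal peaks with a named gene within 50 kb, the strongest in both tissues lay 29.5 kb from Rpusd4. It was rank 1 in vWAT and rank 2 in Liver (21.8 and 25.4). The Liver peak of rank 1 was also shared and distal but had no such gene. Another strong one lay inside Chl1 (25.1 and 23.4) and, like that near Rpusd4, was present in all 5 lists. Those inside Aff3 (18, rank 6) and Spon1 (17.6, rank 10), a matrix protein gene, were much further down in Liver, at ranks 2328 and 1535. Of the shared distal vWAT peaks 107 of 552 had no named protein-coding gene within 50 kb. No list of high-signal or repeat regions was at hand, so their part among the strongest shared peaks was not tested.

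The strongest vWAT peaks absent from Liver were distal. They lay 34.9 kb from Cradd, a death-domain adaptor gene (enrichment 15.7, rank 4), 5 kb from Larp1, which encodes a regulator of mRNA translation (20.2, rank 5), inside Cacna1a, a calcium channel gene (21.1, rank 14), and inside Rapgef2, a Rap activator gene (20.6, rank 21). Each was also found in scWAT, BAT and vWAT with vehicle, unlike most of their class. At gene ends the strongest were at Emilin2, an extracellular matrix gene (12.8, rank 233), Htra1, a secreted protease gene (15.1), Mnt, a MAX-binding repressor gene (13.6), and Nrip1, a corepressor of ERα and a regulator of fat metabolism (14.6).

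The strongest Liver peaks absent from vWAT were of lower rank. The distal ones lay inside Dnase2b (10.9, rank 496), 33.3 kb from Rps6ka1, a kinase gene (11.2, rank 531), inside Tcf7l2, a transcription factor of Wnt signalling (11.3, rank 724), and 4.18 kb from Cux2, a transcription factor gene of the liver's sex-dependent program (10.0, rank 970). At gene ends they were at Sdf4 (9.35, rank 836), Ripk2, a kinase of innate immunity (9.33), Ndrg3 (9.91) and Purg (9.66). Unlike most of the distal class, the peak at Dnase2b was also in BAT, and that near Cux2 in vWAT with vehicle. That near Rps6ka1 was in scWAT, BAT and vWAT with vehicle. At gene ends Sdf4 was in BAT and vWAT with vehicle, and Ndrg3 in scWAT. The peaks at Tcf7l2, Ripk2 and Purg were in no other list.

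The sequence at the gene-end peaks was read from RefSeq promoter windows (GRCm38.p6, 250 bases before to 50 after a start site, 32585 windows on the chromosomes that the table covers). Of the vWAT gene-end summits, 984 of 1515 shared and 49 of 179 unshared ones lay in such a window, and of the Liver ones 1376 of 2159 and 266 of 578. Motifs were searched on both strands. The stretches below are 101 bases centred on a vWAT summit of a shared peak, on the gene's strand. The first 4 are shown because a letter pattern frequent in the shared class, CTACANNTCCC, lies beside the summit, and the last because it lacks it, as do most windows of the class. Capitals mark each match on either strand. The pattern is known from promoters bound by ZNF143 and THAP11, which activate many housekeeping genes, and it was chosen after frequent short sequences of these windows had been seen.
Fyco1: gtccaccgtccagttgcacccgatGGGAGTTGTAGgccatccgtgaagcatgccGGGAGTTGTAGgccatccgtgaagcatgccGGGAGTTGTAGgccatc
Aak1: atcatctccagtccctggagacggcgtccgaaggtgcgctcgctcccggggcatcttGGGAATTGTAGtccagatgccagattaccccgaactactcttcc
Zcchc8: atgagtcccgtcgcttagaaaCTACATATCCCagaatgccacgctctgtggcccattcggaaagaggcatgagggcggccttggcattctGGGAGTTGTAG
Gtf2h4: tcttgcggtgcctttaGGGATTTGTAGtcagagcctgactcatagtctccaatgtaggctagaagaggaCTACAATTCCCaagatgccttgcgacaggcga
Supt7l: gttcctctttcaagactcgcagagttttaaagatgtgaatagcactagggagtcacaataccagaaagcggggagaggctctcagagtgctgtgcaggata
Fyco1 (chr9:123851980-123852080) holds 3 copies, Aak1 (chr6:86849167-86849267), an endocytosis kinase gene, holds 1, and Zcchc8 (chr5:123721054-123721154), a nuclear RNA exosome cofactor gene, and Gtf2h4 (chr17:35673748-35673848), a subunit of the transcription factor TFIIH, hold 2 each. Supt7l (chr5:31526797-31526897), which encodes a subunit of a transcription coactivator complex and starts beside Slc4a1ap, holds none. These peaks had vWAT enrichments of 19, 19, 17.2, 18.6 and 22.7 and were present in all the lists. Of the 4 strongest shared vWAT peaks in such windows, Fyco1 alone had a match beside its summit, and Cwc22, Supt7l and Fam126b had none.

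The pattern was frequent in shared promoters and less frequent in unshared ones. Because it was chosen after these windows had been seen, its shares are descriptions and no test. It was in 297 of 984 vWAT windows with a shared gene-end summit (30.2%, 27.4 to 33.1) and in 336 of 1376 such Liver windows (24.4%, 22.2 to 26.8), against 2.02% of all windows. Among unshared gene-end summits it was in 3 of 49 vWAT windows (6.12%, 2.10 to 16.5) and 14 of 266 Liver windows (5.26%, 3.16 to 8.64). In the 500 strongest Liver peaks 46.6% (40.9 to 52.3) of the shared windows held it, and 18.5% (16.3 to 20.9) of those further down. In vWAT these shares were 31.8% and 29.9%, which differ by less than their intervals. Its centre lay a median of 37.0 bp from the vWAT summit and 33.0 bp from the Liver summit, and within 50 bp for 60.6% and 66.4%. Such closeness was not limited to it, since the nearest CCAAT box lay a median of 33.0 bp from the vWAT and 47.0 bp from the Liver summit, and the ETS core 62.0 and 57.0 bp. Liver peaks with the pattern had a median enrichment of 11.2 against 7.39 without it. In vWAT both medians were 10.5. Brown fat held 86.5% of the vWAT peaks with the pattern and 60.3% of those without.

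**Figure D3:**
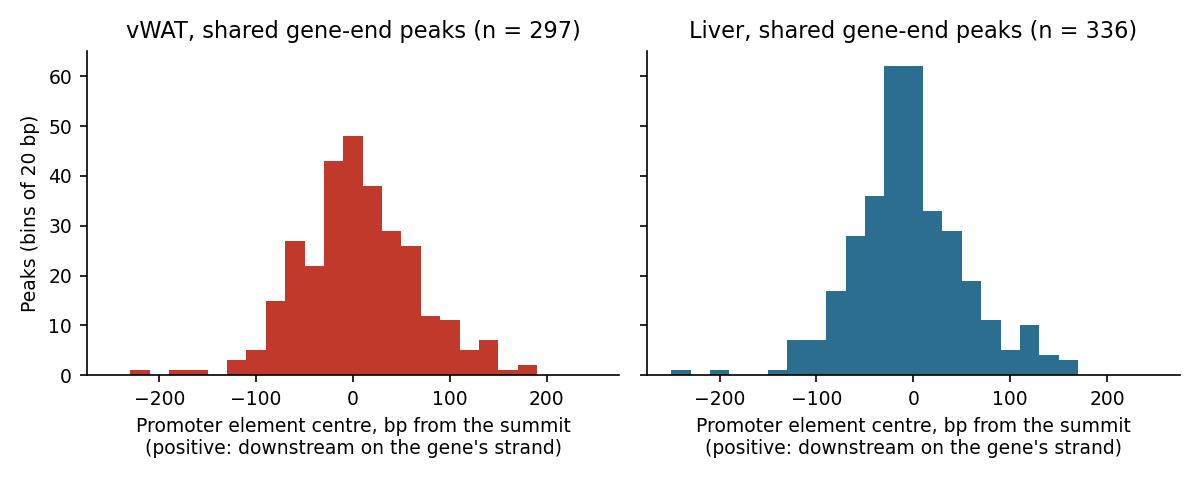
Distance from the summit to the centre of the nearest match of the promoter element, on the gene's strand, for shared gene-end peaks whose promoter window holds a match (297 in vWAT, left, and 336 in Liver, right), in bins of 20 bp. Matches gather around the summit in both tissues, at a median of 37.0 and 33.0 bp from it, as the CCAAT box also does in vWAT (33.0 bp).

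Full estrogen response elements were rare in all promoter classes, and near matches were most frequent in unshared vWAT windows. The full palindrome, GGTCANNNTGACC, was in 0.0706% of all windows and in none of the windows with a gene-end summit, 0 of 984 shared (0 to 0.389%) and 0 of 49 unshared (0 to 7.27%) for vWAT. With up to 1 mismatch it was in 4 of 49 windows of the unshared vWAT gene-end class (8.16%, 3.22 to 19.2), in 9 of 984 shared ones (0.915%) and in 0.884% of all windows. In Liver it was in 0 of 266 unshared (0 to 1.42%) and 6 of 1376 shared windows (0.436%). Unshared distal vWAT summits gave 2 of 26 windows (7.69%, 2.14 to 24.1). Both unshared vWAT classes are small, and their shares rest on 4 and 2 windows. The next stretches are vWAT peaks absent from Liver, with the near-palindrome in capitals for Gm21123 and Nlrp3, and no match within the stretch for H2ac7.
Gm21123: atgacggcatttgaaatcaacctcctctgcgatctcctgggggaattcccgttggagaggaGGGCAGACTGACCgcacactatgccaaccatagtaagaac
Nlrp3: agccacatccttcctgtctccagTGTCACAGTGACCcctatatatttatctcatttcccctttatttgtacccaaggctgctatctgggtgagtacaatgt
H2ac7: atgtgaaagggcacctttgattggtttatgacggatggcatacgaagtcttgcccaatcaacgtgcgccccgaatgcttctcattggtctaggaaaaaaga
The peak at Nlrp3 (chr11:59541516-59541616), an inflammasome sensor gene, had an enrichment of 11.3, that at Gm21123 (chr7:110699721-110699821) 9.51 and that at H2ac7 (chr13:23574267-23574367), a histone gene, 11.9. All of them were found in scWAT. The first and the second were absent from vWAT with vehicle, and that at H2ac7 was present there. The next stretches, from strong Liver gene-end peaks absent from vWAT, hold no match of either pattern and are shown for comparison.
Ndrg3: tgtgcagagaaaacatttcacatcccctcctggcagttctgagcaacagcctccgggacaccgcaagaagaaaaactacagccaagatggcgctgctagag
Ptpn23: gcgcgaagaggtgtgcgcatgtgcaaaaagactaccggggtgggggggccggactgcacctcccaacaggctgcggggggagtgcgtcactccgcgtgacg
These lay at Ndrg3 (chr2:156992189-156992289, Liver enrichment 9.91) and Ptpn23 (chr9:110408217-110408317, 9.50), a gene of endosomal sorting.

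Other promoter motifs divided the unshared classes. The ETS core CCGGAAG was in 30.2% (27.4 to 33.1) of shared vWAT, 32.3% of shared Liver and 30.8% (25.6 to 36.6) of unshared Liver windows, but in 4 of 49 unshared vWAT windows (8.16%, 3.22 to 19.2), near the 8.92% of all windows. The CCAAT box was in 75.5% (61.9 to 85.4) of unshared vWAT, 53.8% of shared vWAT and 32.7% (27.3 to 38.6) of unshared Liver windows, against 37.6% of all. The HNF4 core CAAAGTCCA, for a receptor that marks hepatocyte enhancers, was in 0 of 266 unshared Liver windows (0 to 1.42%). That interval holds the 0.479% of all windows, so the class is too small to show a lack. Windows of unshared Liver summits were richest in G and C, with a median of 63.7% against 58.3% for unshared vWAT, 57.7% and 58.7% for the shared classes and 53.0% for all windows. Base composition was not matched, and its part in these shares was not tested. Of the gene-end summits, 85.8% of shared and 60.3% (52.9 to 67.3) of unshared vWAT ones lay within 1 kb of a RefSeq start site, as did 85.3% and 78.3% in Liver. Some distal summits also lay in a promoter window, 85 of 552 shared and 26 of 2754 unshared ones in vWAT. In Liver these were 127 of 671 and 60 of 1592. The pattern CTACANNTCCC was in 30 of the 85 shared vWAT windows (35.3%) and 31 of the 127 shared Liver ones (24.4%). It was in 0 of the unshared vWAT and 2 of the unshared Liver windows. The pattern was thus not limited to gene-end peaks. Sequence under distal peaks outside promoter windows was not analysed here.

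**Figure D4:**
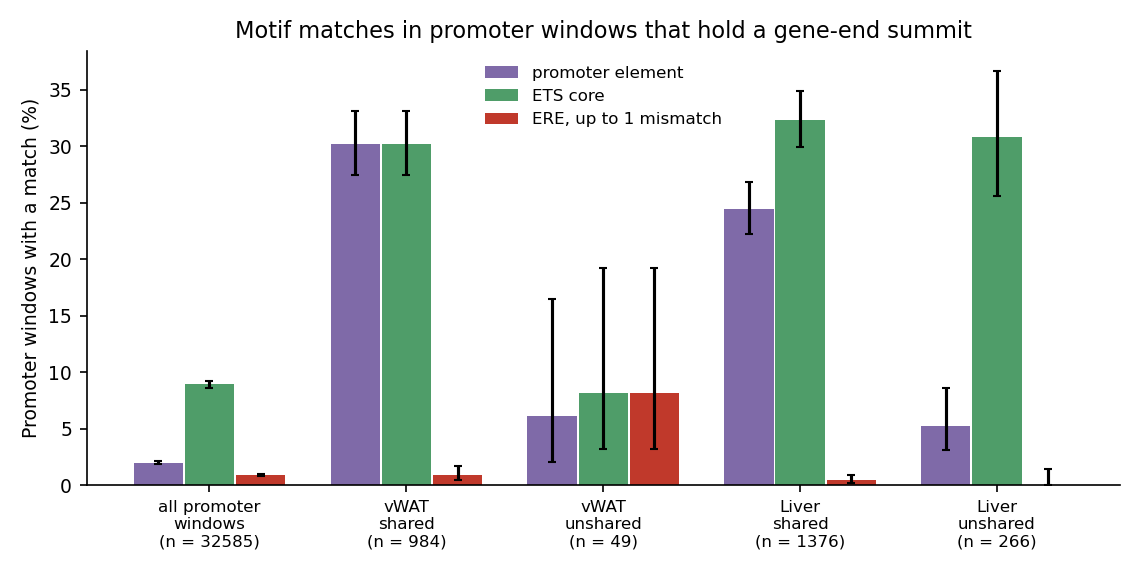
Share of promoter windows with a match of the promoter element, the ETS core or the estrogen response element with up to 1 mismatch, for all windows and for those holding a shared or unshared gene-end summit of vWAT or Liver, with 95% Wilson intervals. The promoter element, chosen after these windows had been seen, stands out in both shared classes (30.2% and 24.4%). The unshared vWAT class of 49 windows has wide intervals.

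Genes of the 2 tissues were then listed by the kind of top peak inside their span or within 25 kb. Of 21631 protein-coding genes, 11.3% had a vWAT top peak absent from Liver, 13.6% a Liver top peak absent from vWAT and 27.9% a shared one. These shares are the background for the counts within 25 kb below. Lists hold 13 to 19 genes, longer genes reach more peaks, and neighbours can share 1 peak, so the counts are descriptions. The median span was 17.3 kb for all genes and ran from 3.88 kb for the ribosome list to 68.7 kb for nuclear receptors and cofactors.

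Among classical estrogen response genes, 5 of 18 (27.8%) had a vWAT top peak absent from Liver, 0 had a Liver top peak absent from vWAT and 6 had a shared one. The last share, 33.3%, was near the 27.9% of all genes, and within 5 kb it was 11.1%, against 17.8%. Greb1, a coactivator gene known as an estrogen target in breast cells, had 4 vWAT top peaks, with enrichments of 16.9, 9.66, 8.85 and 8.32, the first at chr12:16790301-16790840. Its 3 Liver peaks lay elsewhere, none was in the top 5000, and the strongest had 4.04 (rank 9175). Pgr, the progesterone receptor gene, had 4 vWAT peaks, 2 of them top peaks (15.3 and 14.3), and no Liver peak. Nrip1 had 2 vWAT top peaks absent from Liver, and Sgk1, a kinase gene induced by steroid hormones, had 2 (up to 10.8). Near Xbp1, a factor of the unfolded protein response, but outside its span, lay one of the strongest shared peaks, at chr11:5542065-5542811. It had 19.4 in vWAT (rank 19) and 9.88 in Liver (rank 911). Igfbp4, an IGF-binding protein gene, had a shared peak of 15.5 and 10.6 outside its span, at chr11:99023973-99024668. Within 100 kb 9 of 18 had a vWAT and 5 a Liver unshared top peak, against 25.7% and 29.5% of all genes. Over the whole lists, weak peaks included, 12 of 18 genes had a vWAT peak absent from Liver and 13 had the reverse. These were 66.7% and 72.2%, against 45.0% and 53.7% of all genes.

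Esr1, which encodes ERα itself, spans 394 kb. Inside its span or within 25 kb it had 15 vWAT peaks, 3 of them top peaks, and 6 Liver peaks, 1 of them a top peak. The strongest in both tissues was the same site, outside the span at chr10:4590811-4591732 in vWAT. It had an enrichment of 11.1 (rank 920) in vWAT and 6.01 (rank 2272) in Liver. The other 2 vWAT top peaks, 10.3 and 8.78, had no Liver counterpart. Of the 18 nuclear receptor and cofactor genes, 6 had a vWAT top peak absent from Liver, 2 a Liver one absent from vWAT and 9 a shared one. Shared peaks stood near Nr1h3, the liver X receptor alpha gene (13.9 in vWAT and 13.6 in Liver), and Thra, a thyroid hormone receptor gene (15.4 and 15.7).

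Connective tissue genes had vWAT top peaks that Liver lacked and, at this distance, none of the reverse kind. Of 18 stroma and matrix genes, 8 (44.4%) had a vWAT top peak absent from Liver, 0 had a Liver one absent from vWAT and 1 had a shared one. Dcn, the proteoglycan decorin, had a peak of 17.7 (rank 212) 5.18 kb from its span, Cd34, a surface marker of fat progenitors and endothelium, one of 14.1, Col6a3 one of 14.5 and Col5a1, both collagen genes, had 4 of up to 9.25. Within 5 kb the count was 3 of 18, against 6.60% of all genes, and still 0 for Liver. Over the whole lists, weak peaks included, the counts were 15 of 18 for vWAT and 9 of 18 for Liver, and within 100 kb top peaks gave 11 and 2. Of all genes 45.0% and 53.7% had such peaks over the whole lists, and 25.7% and 29.5% within 100 kb. Fibroblasts are part of fat tissue, and which cells carried these peaks was not tested.

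Adipocyte regulators and fatty acid uptake genes often had top peaks that Liver lacked. Of 18 adipogenic factor genes 10 (55.6%) had a vWAT top peak absent from Liver, 5 a Liver one absent from vWAT and 3 a shared one, over a median span of 54.5 kb. Zfp423, a preadipocyte factor, had 3 of up to 16.5 (rank 279), and Srebf1, a factor of lipid synthesis, 2 of up to 14.5. Stat5a and Stat5b, signal transducers of growth hormone and prolactin, shared a peak of 16.3 in vWAT and 11.4 in Liver. Pparg, the main adipogenic receptor, had 1 vWAT top peak 21.2 kb from its span (9.23) that Liver lacked and 1 Liver top peak inside it (5.27) that vWAT lacked. Of 13 fatty acid uptake genes 6 had a vWAT top peak absent from Liver, 1 a Liver one absent from vWAT and 4 a shared one. The first group included Lrp1, a lipoprotein receptor gene, with 3 (up to 11.3), and Cav1 and Cav2, caveolin genes that share peaks (up to 10.4), as well as Cd36, a fatty acid transporter gene (9.23). The shared peak near Slc27a4, a fatty acid transport protein gene, had 15.5 and 10.8. Over the whole lists, weak peaks included, 17 of 18 adipogenic factor genes had a vWAT peak absent from Liver and 16 had the reverse. For fatty acid uptake these counts were 9 and 7 of 13. Within 5 kb top peaks gave 7 and 5 adipogenic factor genes, and 5 and 1 uptake genes. Of all genes 45.0% and 53.7% had such peaks over the whole lists, and 6.60% and 7.89% within 5 kb.

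Genes of lipid synthesis and of lipid droplets differed in their counts. Of 18 genes of fatty acid and triglyceride synthesis 9 had a shared top peak, 6 a vWAT one absent from Liver and 4 a Liver one absent from vWAT. Fasn, fatty acid synthase, had a shared peak of 18.6 in vWAT and 13.3 in Liver, Fads1, a fatty acid desaturase gene, one of 19.1 and 17.9, and Gpam, which starts triglyceride synthesis, one of 12.5 in vWAT and 4.88 in Liver. Of 18 lipolysis and lipid droplet genes 5 (27.8%, near the share of all genes) had a shared peak, 4 (22.2%) a vWAT one absent from Liver and 1 a Liver one absent from vWAT. The shared ones were near Prkar2b, a protein kinase A subunit gene (15.8 and 11.9), Plin2, a droplet coat gene (13.9 and 17.2), and Pnpla2, adipose triglyceride lipase (10.00 and 14.7). Of 16 adipokine genes 6 had a vWAT and 5 a Liver unshared peak. The strongest was a vWAT peak of 21.5 (rank 22) 25 kb from Cfd, the adipsin gene, and Vegfa, an angiogenic factor gene, had one of 15.4 inside its span. Cfd, Nampt and Agt also had a Liver top peak that vWAT lacked, at another site.

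Liver-only peaks were listed near genes of secreted liver proteins. Of 19 hepatocyte secreted protein genes 9 (47.4%) had a Liver top peak absent from vWAT, 2 a vWAT one absent from Liver and 4 a shared one. These peaks were of low rank and lay outside the genes. Alb, the albumin gene, and its neighbour Afp shared 1 of their peaks, and the best ranked near Alb had 5.62 (rank 2593). The fibrinogen genes Fga and Fgg shared one of 5.49 (rank 2502), and Fga and Fgb another of 5.28. Within 5 kb the count was 2 of 19, against 7.89% of all genes. The strongest top peaks of the list were shared ones, near Hp, the haptoglobin gene (16.0 in Liver and 17.2 in vWAT), and Trf, the transferrin gene (12 and 13.7).

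Of 18 coagulation and complement genes 4 had a Liver top peak absent from vWAT, 0 a vWAT one absent from Liver and 5 a shared one. F11, a clotting factor gene, had a Liver peak of 7.34 inside its span (rank 1463). Shared peaks near F2, the prothrombin gene (22.1 in Liver, rank 14, and 21.5 in vWAT), and C3, the central complement gene (16.2 in Liver, rank 60, and 11.3 in vWAT, rank 640), ranked highest of this list. Of 18 liver transcription factor genes 6 had a Liver unshared peak, 4 a vWAT one and 5 a shared one, with Foxa3, a pioneer factor gene, holding a shared peak (11.9 in Liver) and a Liver one that vWAT lacked (8.29, rank 1334). Hnf4a, the master hepatocyte factor, had Liver peaks of up to 5.31 and a vWAT peak of 7.85 at another site 23.4 kb from its span.

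In the bile acid, cholesterol and lipoprotein list, 6 of 18 genes had a Liver unshared peak, 4 a vWAT one and 7 a shared one. Mttp, which loads lipid onto lipoproteins, had both a shared peak (13.7 in Liver and 9.32 in vWAT) and a Liver unshared one (5.88), as did Hmgcs1, a cholesterol synthesis gene (8.20 and 13.9 for the shared one). Of 18 drug and steroid metabolism genes 7 had a Liver unshared peak, 5 a vWAT one and 4 a shared one. Ephx1, an epoxide hydrolase gene, had 2 Liver unshared peaks (up to 6.34), and Sult1a1, a phenol sulfotransferase gene, a shared one of 12 and 7. Sult1e1, which inactivates estrogens by sulfation, had a Liver peak of 6.35 that vWAT lacked. Of 18 urea cycle and amino acid genes 5 had a Liver unshared peak, among them Tat, tyrosine aminotransferase (7.91, rank 1151), 4 a vWAT one and 3 a shared one. Of 17 genes of gluconeogenesis and glucose handling 7 (41.2%) had a vWAT unshared peak, 4 a Liver one and 4 a shared one. Within 5 kb the order turned, with 3 vWAT and 4 Liver, as it did over the whole lists, with 13 and 14. Of all genes 6.60% and 7.89% had such peaks within 5 kb, and 45.0% and 53.7% over the whole lists. The listed genes with vWAT unshared peaks included Insr, the insulin receptor gene (9.17), and Pik3r1, a subunit of its signalling kinase (10.7). Those with Liver ones included Gckr, the glucokinase regulator gene (5.96), and Ppargc1a, a coactivator of fasting metabolism (5.63).

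**Figure D5:**
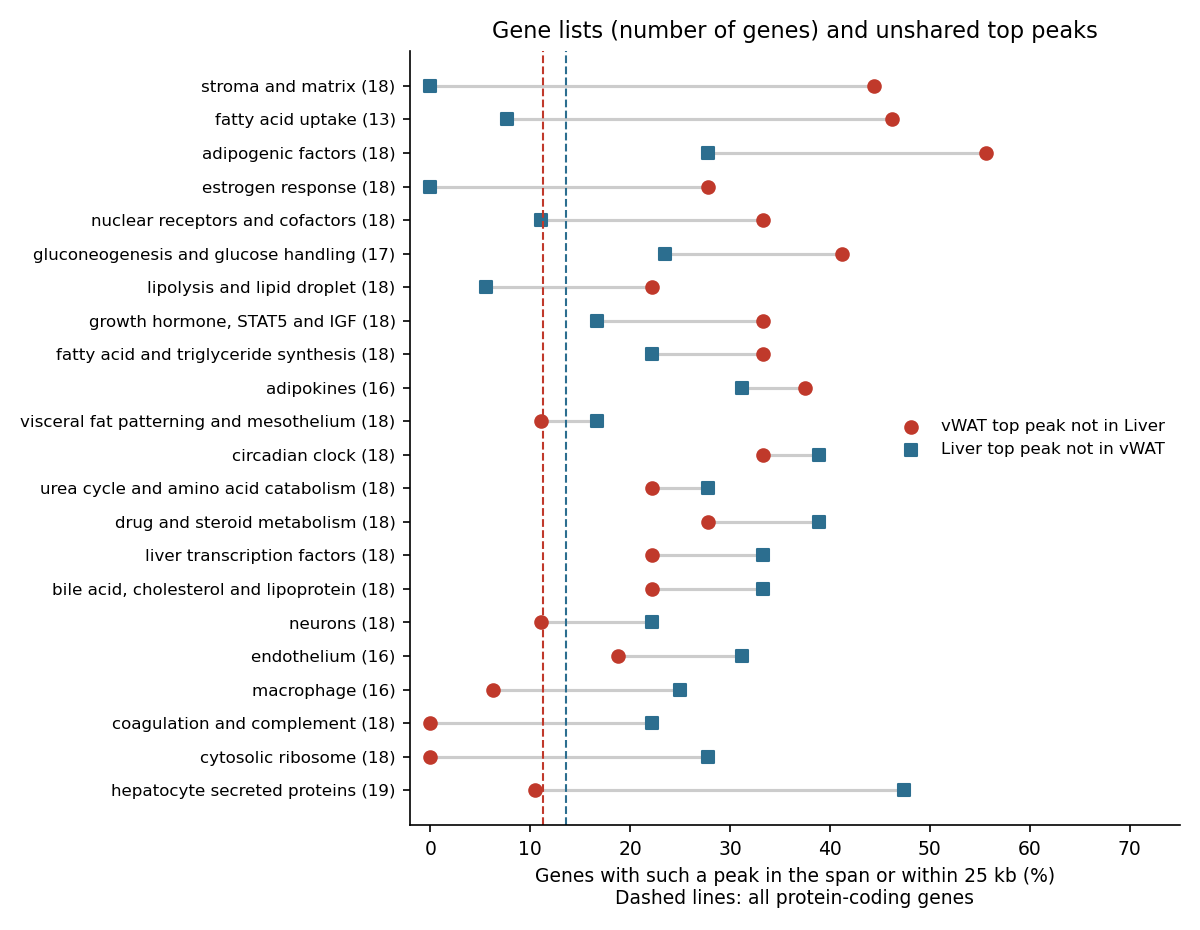
Share of the genes of each list with a vWAT top peak absent from Liver (circles) or a Liver top peak absent from vWAT (squares) inside the span or within 25 kb, ordered by the difference, with the number of genes in brackets and the shares over all protein-coding genes dashed (11.3% and 13.6%). Stroma and matrix genes stand at 44.4% and 0%, and hepatocyte secreted proteins at 10.5% and 47.4%.

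Genes of other cells and of general function were listed for comparison. Of 18 cytosolic ribosome genes 13 (72.2%) had a shared peak, 5 a Liver unshared one and 0 a vWAT unshared one, and Rps18 held the strongest in vWAT (18.9, with 12.2 in Liver). The growth hormone, STAT5 and IGF list had 6 vWAT, 3 Liver and 7 shared of 18, and the circadian list 6, 7 and 8 of 18, with Arntl, a core clock gene, holding a shared peak of 18.1 and 18.2. The counts were 1, 4 and 1 of 16 macrophage genes, 3, 5 and 2 of 16 endothelial genes, 2, 3 and 2 of 18 patterning and mesothelium genes and 2, 4 and 5 of 18 neuronal genes. Among defining markers, 3 of 8 for adipocytes (Lep, Cfd and Pparg) and 1 of 8 for hepatocytes (Hnf4a) had a vWAT unshared peak, whereas 2 of 8 and 4 of 8 (Alb, Apoa1, Hnf4a and Fgb) had a Liver unshared one. Of the 4 markers each for macrophages, endothelium, mesothelium and fibroblasts, 2 (Cd68 and Csf1r), 1 (Stab2), 1 (Lrrn4) and 0 had a Liver unshared peak, and 0, 0, 0 and 1 (Dcn) a vWAT unshared one. Peaks are binding and not expression, so these markers do not measure the makeup of the tissues.

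The 2 kinds of unshared peak also met in or near the same genes. Both stood in or within 25 kb of 468 genes, which are 19.2% of the 2437 genes with a vWAT unshared peak and 15.9% of the 2945 with a Liver one. Of all protein-coding genes 13.6% had a Liver and 11.3% a vWAT unshared peak, and gene length was not matched. The best placed was Soga1, with a vWAT peak of 14.2 inside it (rank 171) and a Liver peak of 9.91 (rank 951) 62.3 kb away. That Liver peak lay outside Soga1 and was the gene-end peak of Ndrg3 named above. Armc6, Slc25a42 and Sugp2 are neighbours that share 1 pair of peaks, 14.9 kb apart (9.69 in vWAT and 9.36 in Liver). Near Iscu, an iron-sulfur cluster scaffold gene, the peaks lay outside its span and 2.22 kb apart (12.4 and 8.47), and neighbouring genes shared the pair.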

How the data were processed

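Peak lists of ERα ChIP-seq were used, and the H3K27ac and RNA-seq libraries of vWAT were not analysed here. The submitters' processing notes name BWA 0.7.12, HOMER and the build mm10 without saying what each tool did. Which caller and control were used, and how libraries became 1 list, is not given in the sources used here. For each peak the authors deposited a fold enrichment ratio, a −log10 p-value, a −log10 q-value, a summit and a score, which was 10 times the −log10 p. From these lists, overlaps, distances to RefSeq gene spans (GRCm38.p6, without strand), shares with Wilson intervals and motif matches were computed with Python 3.11.15, numpy 2.4.6, pandas 2.3.3 and scipy 1.17.1. Overlap and motif code was tested on simulated data. Coordinates count from 1.

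The members, gene lists and tests were chosen with earlier results of these data known. Per class the 4 strongest peaks by −log10 p with different genes within 50 kb were named, with up to 4 members per gene list by strongest top peak, the 5 genes best placed for both kinds of unshared peak, and Greb1, Pgr and Esr1. Other genes named, such as Alb, Fgb, Afp, Pparg, Cd36, Agt, Hnf4a, Sult1e1, Insr, Pik3r1 and Ppargc1a, were chosen after their values were seen. All 372 list genes were found, and some genes that the rule gives are left out of the text. Alternatives covered the number of peaks, the ranking, the overlap, the list looked up in and the gene-end distance.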

Additional observations from a re-analysis of the deposited data

How the results depend on the processing

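No paired analysis was possible because each group had 1 list over its libraries, and for the same reason there are no values without 1 replicate. In what follows the shares are, in order, vWAT top peaks found in Liver, Liver top peaks found in vWAT, and the gene-end share of shared vWAT, unshared vWAT, shared Liver and unshared Liver peaks. In the report they are 41.3%, 56.6%, 73.3%, 6.10%, 76.3% and 26.6%.

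With 2500 top peaks they were 48.6%, 79.4%, 74.9%, 4.75%, 80.7% and 32.9%, and with 10000 they were 31.6%, 38.6%, 69.1%, 8.55%, 70.7% and 21.5%. Looked up in the top 5000 of the other list they were 34.1%, 34.3%, 80.1%, 9.93%, 79.7% and 41.7%. Looked up in peaks with a −log10 q of at least 2 they were 38.3%, 55.3%, 75.9%, 7.81%, 76.5% and 27.8%. With overlap of at least 50% of both peaks they were 36.4%, 48.2%, 76.6%, 9.40%, 77.9% and 33.2%, and with summits within 100 bp 31.3%, 38.5%, 76.0%, 14.7%, 78.3% and 40.0%. Without top peaks found in every other list they were 23.1%, 41.2%, 61.4%, 5.95%, 70.9% and 26.2%. With gene ends within 5 kb the last 4 shares were 81.2%, 16.8%, 84.7% and 39.3%, and within 250 bp 60.6%, 2.73%, 63.6% and 18.9%. Ranking by enrichment moved none of the 6 beyond its interval. In all of these settings the cause of a move beyond the setting itself was not tested.

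With the scWAT list held to its 5193 strongest peaks, it held 62.7% of unshared distal vWAT peaks (85.2% in full) and 0.817% of unshared distal Liver peaks (5.28%). Of unshared gene-end Liver peaks it then held 2.08% (34.4% in full). Gene-list counts depended on the distance: 38 of 66 moved by over 1.5 times within 5 kb, 42 within 100 kb and 46 with whole lists. With whole lists 12 of 18 estrogen response genes had a vWAT and 13 a Liver unshared peak, and 15 and 9 of 18 stroma and matrix genes did. With top peaks within 100 kb these counts were 9 and 5, and 11 and 2, so the counts of 0 for Liver hold for top peaks up to 25 kb away. Of all genes 45.0% had a vWAT and 53.7% a Liver unshared peak with whole lists, and 25.7% and 29.5% within 100 kb. A longer form of the promoter element, chosen after seeing the data, left its share in shared vWAT windows within the interval. Unknown read depth and 2 Liver libraries against 4 of vWAT limit what absence from a list shows.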
